A study of Ictidomys tridecemlineatus with 31 samples.

Results

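The genes described here set how much glucose enters glycolysis and whether the pyruvate at its end goes to lactate or to the mitochondria. A list of 10 symbols was looked up in the table of 12863 genes, with upper and lower case treated alike and the row of highest mean kept where a symbol had more than 1 row. This gave 9 of the 10: Slc2a1 (gene2048), Hk1 (gene9263), Pfkfb2 (gene12495), Pfkfb3 (gene4146), Pkm (gene1020), Ldha (gene10027), LDHB (gene11941), Pdk2 (gene5388) and Pdk4 (gene14615). Hk2 had no row and was not analysed here. A second, lower row (G4318) also carried the symbol LDHB and is described beside its values.

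RNA was measured by RNA-Seq in a frozen piece of kidney from each of 31 13-lined ground squirrels (Ictidomys tridecemlineatus), a rodent that spends the winter in bouts of torpor broken by short arousals. The animals were captive bred or bought from a supplier, and their state was assigned from continuous records of body temperature. Active season animals held a warm body temperature: SA (summer active, fattening in August, 5 animals) and SpD (spring dark, still in the cold dark room after the last torpor bout, 5 animals). Hibernation season animals were EAr (early in arousal from torpor, still cold, 5 animals), LAr (later in the same rewarming, 6 animals), IBA (interbout aroused, shortly after rewarming, 5 animals) and Ent (cooling into the next torpor bout, 5 animals). Each library came from a different animal, all kidneys were perfused with cold buffer before dissection, and the labels name no drug or engineered allele in any group. The libraries were made in 2 experiments with different kits. Experiment 1 held 9 animals from IBA, Ent and SpD, and experiment 2 held 22 animals from all 6 states. K113 (LAr) and K137 (SA) were left out of the main fit, as the study did in its own test, which left 29 animals (SA 4, every other state 5, with 16 females and 13 males). K130 (SpD) was kept, but like K113 and K137 it stood apart from its state in several genes, so values are also given without it.

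Glucose enters cells through transporters such as Slc2a1 and is trapped by hexokinases such as Hk1. Pfkfb enzymes make or remove fructose 2,6-bisphosphate, the strongest activator of phosphofructokinase, and Pkm makes pyruvate. Lactate dehydrogenase, built from Ldha and LDHB subunits, interconverts pyruvate and lactate, while Pdk2 and Pdk4 phosphorylate the pyruvate dehydrogenase complex and so hold pyruvate back from the mitochondria. In the mammalian kidney the proximal tubule burns mainly fatty acids and lactate and can make glucose, whereas the medulla, which is poor in oxygen, relies on glycolysis.

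Values are rlog values, a log2 scale on which 1 unit is a 2-fold difference, after the authors removed the mean difference between experiments. SA, EAr and LAr were in experiment 2 only, so this removal can also have taken away part of the differences between states. State means, ranges and overlaps are of these values as they stand, and the permutation tests use them too. Only the limma fits hold a term for experiment. The values span 4.11 to 19.79 over the table, and the medians of the animals lie between 9.74 and 9.88. Counts and sequencing depth are not part of the table, so depth is unknown and the precision of every value is the spread between animals. The values are not scaled to transcript length, so levels were compared between animals and never between genes. Unless another test is named, differences come from limma with state, sex and experiment as terms, and adjusted p means Benjamini-Hochberg adjustment over all 12863 genes of a comparison. A gene is called at an adjusted p under 0.001, the threshold of the study. The season difference is the mean of IBA, Ent, EAr and LAr minus the mean of SA and SpD, with each state weighted alike. Its 20 hibernating and 9 active animals also enter the comparisons of single states, so these comparisons share animals. Tubule markers fitted the label kidney: all 7 proximal tubule and all 7 collecting duct and medulla markers had rows, as did all markers of the thick ascending limb, distal convoluted tubule, intercalated cells, endothelium, podocytes, macrophages and fibroblasts, whereas 0 of 2 red cell markers did. In a bulk sample, fewer cells of a type and less RNA per cell cannot be told apart.

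Between the seasons, 3 of the 9 genes were called. Ldha was 1.32-fold higher and Pfkfb2 1.29-fold higher in hibernation, and LDHB was 1.36-fold lower. Of all 12863 genes, 9.73% were called in this comparison, 4.43% higher and 5.29% lower in hibernation. At an adjusted p under 0.05 the members numbered 4, with Slc2a1 added, against 33.4% of all genes. Across all 6 states, 1 of 9 was called (Ldha, adjusted p = 0.000225), against 9.34% of all genes, and 4 of 9 passed 0.05, against 46.1%. The shares across states were thus close to those of the table. The plot of every animal below shows how the 9 genes were spread within and between states.

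**Figure D1:**
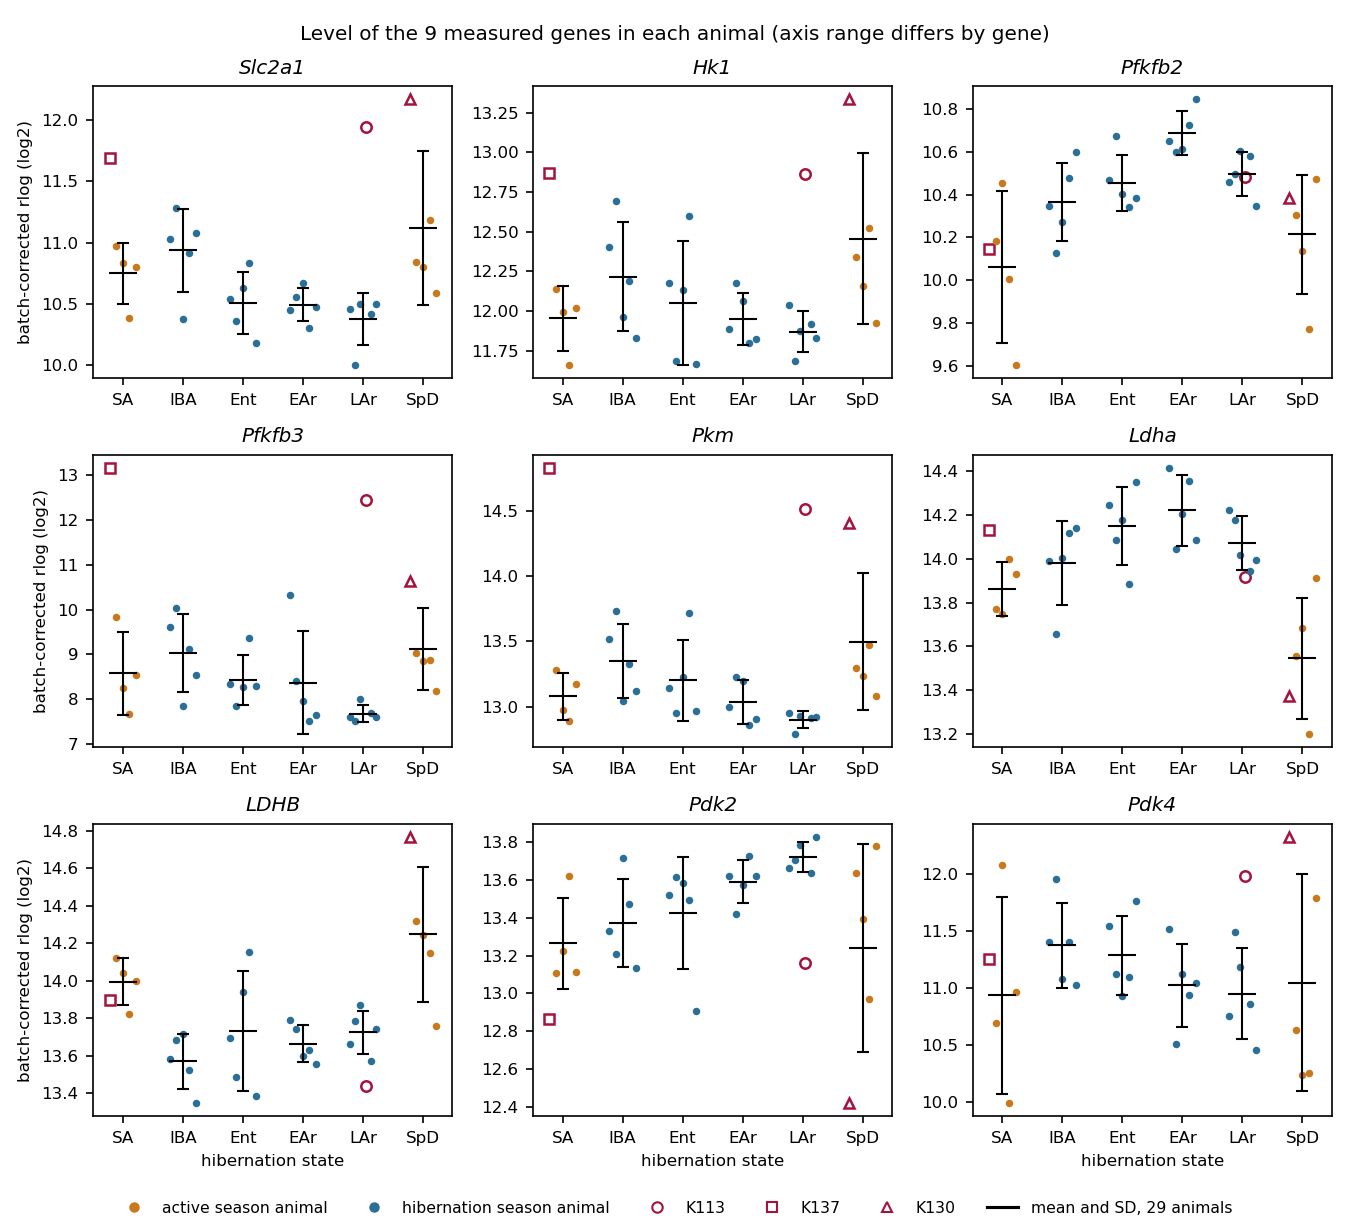
Batch-corrected rlog value (log2) of each measured gene, 1 panel per gene with its own axis range, by hibernation state. Points are animals (orange active season, blue hibernation season), open red symbols are K113, K137 and K130, and black bars are the mean and SD of the 29 animals of the main fit. Ldha is lowest in SpD and LDHB highest there, and the open symbols lie above every other animal of their state in the panels of Slc2a1, Hk1, Pfkfb3 and Pkm.

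Slc2a1, the glucose transporter GLUT1, had lower means in the cold and rewarming states than in the active season. The LAr animals were at 9.997, 10.42, 10.45, 10.49 and 10.50, the EAr animals between 10.30 and 10.67 and the Ent animals between 10.18 and 10.84. SA lay between 10.39 and 10.97, IBA between 10.38 and 11.28, and SpD at 10.59, 10.80, 10.84, 11.19 and 12.17. These groups overlapped, and 8 of 9 active animals lay above the hibernating median. The season difference was -0.36 ± 0.13 (log2, SE), which was not called (adjusted p = 0.0378), and without K130, the highest SpD animal, it was -0.22 (adjusted p = 0.101). IBA lay 0.70 ± 0.23 above LAr (log2, SE), the only member with an adjusted p under 0.05 there (0.0363).

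Hk1, the hexokinase bound to mitochondria, and Pkm, pyruvate kinase, shared the order of their highest and lowest states. Hk1 means ran from 12.46 ± 0.54 in SpD and 12.22 ± 0.35 in IBA to 11.87 ± 0.13 in LAr (SD, n = 5 each). Pkm means ran from 13.50 ± 0.52 in SpD and 13.35 ± 0.28 in IBA to 12.90 ± 0.06 in LAr (SD, n = 5 each). The 5 IBA animals, between 13.04 and 13.73, lay above the 5 LAr animals, between 12.79 and 12.95, without overlap in Pkm. The share of all genes without overlap between these states was not computed. Neither gene was called in any comparison. The season differences were -0.18 ± 0.12 for Hk1 (adjusted p = 0.269) and -0.17 ± 0.12 for Pkm (adjusted p = 0.279), and without K130 they were -0.06 and -0.04. In experiment 1 the hibernating and SpD means of Pkm were 13.31 ± 0.27 (SD, n = 6) and 13.21 ± 0.11 (SD, n = 3), whereas in experiment 2 they were 13.04 ± 0.24 (SD, n = 14) and 13.94 ± 0.66 (SD, n = 2), the latter pair holding K130.

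Pfkfb2 and Pfkfb3, whose enzymes set the level of fructose 2,6-bisphosphate, differed in how they varied. Pfkfb2 was highest in EAr, where the animals lay at 10.60, 10.61, 10.65, 10.73 and 10.85, above every active animal. The share of all genes of which this holds was not computed. The SA animals were between 9.603 and 10.45 and the SpD animals at 9.77, 10.14, 10.30, 10.38 and 10.47. IBA, Ent and LAr lay between, with means of 10.36 ± 0.18, 10.45 ± 0.13 and 10.50 ± 0.10 (SD, n = 5 each). Of the 20 hibernating animals, 11 lay above the highest active animal and 19 above the active median. The season difference was 0.36 ± 0.08 (log2, SE; adjusted p = 0.000688).

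This call of Pfkfb2 was close to the threshold. It held in 10 of 12 other fits, and was lost in experiment 2 alone (0.43, adjusted p = 0.00502) and without the sex term (0.36, adjusted p = 0.00116). Only 11 of the 29 fits that left out 1 animal kept it, with adjusted p up to 0.00295 and the difference between 0.30 and 0.45. Against SA alone the difference was 0.42 (adjusted p = 0.00466) and against SpD alone 0.31 (adjusted p = 0.0278), neither of which was called. The direction was the same in experiment 1 (0.12 for 6 hibernating against 3 SpD animals) and in experiment 2 (0.46 for 14 against 2).

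Pfkfb3, the inducible form with the strongest kinase activity, spread more within states than any other of the 9 genes, with a median SD within states of 0.89. Its values ran from 8.18 to 10.65 in SpD, 7.67 to 9.84 in SA, 7.86 to 10.04 in IBA, 7.85 to 9.36 in Ent and 7.51 to 10.32 in EAr. The 5 LAr animals of the main fit were close together and low, between 7.51 and 7.999. The season difference of -0.47 ± 0.32 (log2, SE) was not called (adjusted p = 0.257), and it was -0.21 without K130 (adjusted p = 0.601). IBA was 1.41 ± 0.55 above LAr, which was not called either (adjusted p = 0.0763). Pfkfb3 minus Pfkfb2 was 0.86 log2 lower in hibernation (exact permutation p = 0.030, adjusted 0.045) and 0.67 log2 lower without K130 (exact permutation p = 0.0862, adjusted 0.129). This test between seasons was added to the planned ones. It uses the Pfkfb2 values behind the seasonal call, so it is no independent support for that call.

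Lactate dehydrogenase showed the clearest difference between seasons, and its subunits moved in opposite directions. For Ldha, which favours the making of lactate, the SpD animals were at 13.20, 13.37, 13.56, 13.68 and 13.91, and the SA animals at 13.75, 13.77, 13.93 and 14.00. The hibernating states had means of 13.98 ± 0.19 in IBA, 14.15 ± 0.18 in Ent, 14.22 ± 0.16 in EAr and 14.07 ± 0.12 in LAr (SD, n = 5 each), against 13.86 ± 0.12 in SA (SD, n = 4) and 13.54 ± 0.28 in SpD (SD, n = 5). With sex and experiment in the model, IBA did not stand above SA (IBA/SA difference -0.01 ± 0.13, adjusted p = 0.973). The seasons overlapped through a few animals. Of the 20 hibernating animals, 15 lay above the highest active animal, and all 9 active animals lay below the hibernating median of 14.10. The season difference was 0.40 ± 0.07 (log2, SE; adjusted p = 0.000108). The state means, without the terms of the model, ran in the order EAr, Ent, LAr, IBA, SA and SpD. The fit did not place IBA above SA. No step between neighbours in this order was called by limma, where Ent and LAr were not compared.

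LDHB, the subunit common in tissues that oxidise lactate, was higher in the active states, with means in the order SpD, SA, Ent, LAr, EAr and IBA. The IBA animals were at 13.35, 13.52, 13.59, 13.68 and 13.71, and the SA animals at 13.82, 14.00, 14.04 and 14.12, with no overlap between these states. The SpD animals were higher still in mean, at 13.76, 14.15, 14.25, 14.32 and 14.77, and their lowest animal also lay above every IBA animal. LDHB was called in neither of these pairs in the main fit, and the share of all genes without overlap in them was not computed. Ent spanned 13.39 to 14.15, EAr 13.56 to 13.79 and LAr 13.57 to 13.87. Of the 20 hibernating animals, 15 lay below the lowest active animal, and all 9 active animals lay above the hibernating median. The season difference was -0.45 ± 0.09 (log2, SE; adjusted p = 0.000410). The second row with this symbol, G4318, carries it in the table only through a human blastn match, so that it is LDHB is uncertain. It gave -0.42 (adjusted p = 0.000175) at a lower level, with a mean of 9.53 against 13.82. Whether the authors' counting divided reads between these rows is not known.

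Taking LDHB minus Ldha within each animal removes what scales both genes alike, but not what moves them in opposite directions. Their relations to the collecting duct and medulla marker level, given below, had opposite signs (Pearson's r of 0.64 for LDHB and -0.57 for Ldha). The difference was not fitted with that level. This difference was 0.13 ± 0.24 in SA (SD, n = 4) and 0.70 ± 0.57 in SpD (SD, n = 5). In hibernation it was -0.41 ± 0.31 in IBA, -0.42 ± 0.46 in Ent, -0.56 ± 0.16 in EAr and -0.35 ± 0.16 in LAr (SD, n = 5 each). All 20 hibernating animals lay below the active median and 17 lay below the lowest active animal. The mean was 0.88 log2 lower in hibernation (exact two-sided permutation test over 10015005 arrangements of 20 and 9 animals, p = 6.89e-06, adjusted over 3 enzyme pairs 2.07e-05). Unlike the limma fits, the exact permutation tests here had no term for sex or experiment, though SA, EAr and LAr were in 1 experiment only. The test of LDHB minus Ldha between seasons was added after the seasonal calls of Ldha and LDHB were seen. It rests on the same values, so it is no independent support for them. Without K130 the difference was 0.76 log2 lower (exact permutation p = 2.22e-05).

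The 3 calls did not rest equally on all animals. Ldha kept its seasonal call in 12 of 12 other fits of the same contrast and in all 29 fits that left out 1 animal each, with adjusted p up to 0.000738. LDHB kept its call in 12 of 12 other fits and in 26 of 29, and lost it without SA animals K138 (adjusted p = 0.00193) or K139 (0.00128) or without SpD animal K3 (0.00102). Against SA alone the season difference was 0.18 for Ldha (adjusted p = 0.170) and -0.30 for LDHB (adjusted p = 0.0737), with 6.48% of all genes called in that comparison and 0 of the 9 members. Against SpD alone it was 0.62 for Ldha (adjusted p = 6.19e-05) and -0.60 for LDHB (adjusted p = 0.000851), with 2.81% of all genes called. These contrasts share the 20 hibernating animals and were added after the seasonal calls were seen. The call of Ldha across the 6 states was lost without SpD animals K130 (adjusted p = 0.00145) or K84 (0.00186).

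The direction of both genes was alike in the 2 library experiments. In experiment 1, Ldha was 0.39 log2 higher and LDHB lower in the 6 hibernating animals than in the 3 SpD animals (differences of 0.39 and -0.45). In experiment 2, the 14 hibernating animals differed from the 2 SpD animals by 0.82 for Ldha and -0.78 for LDHB. SA, EAr and LAr were in experiment 2 only.

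**Figure D2:**
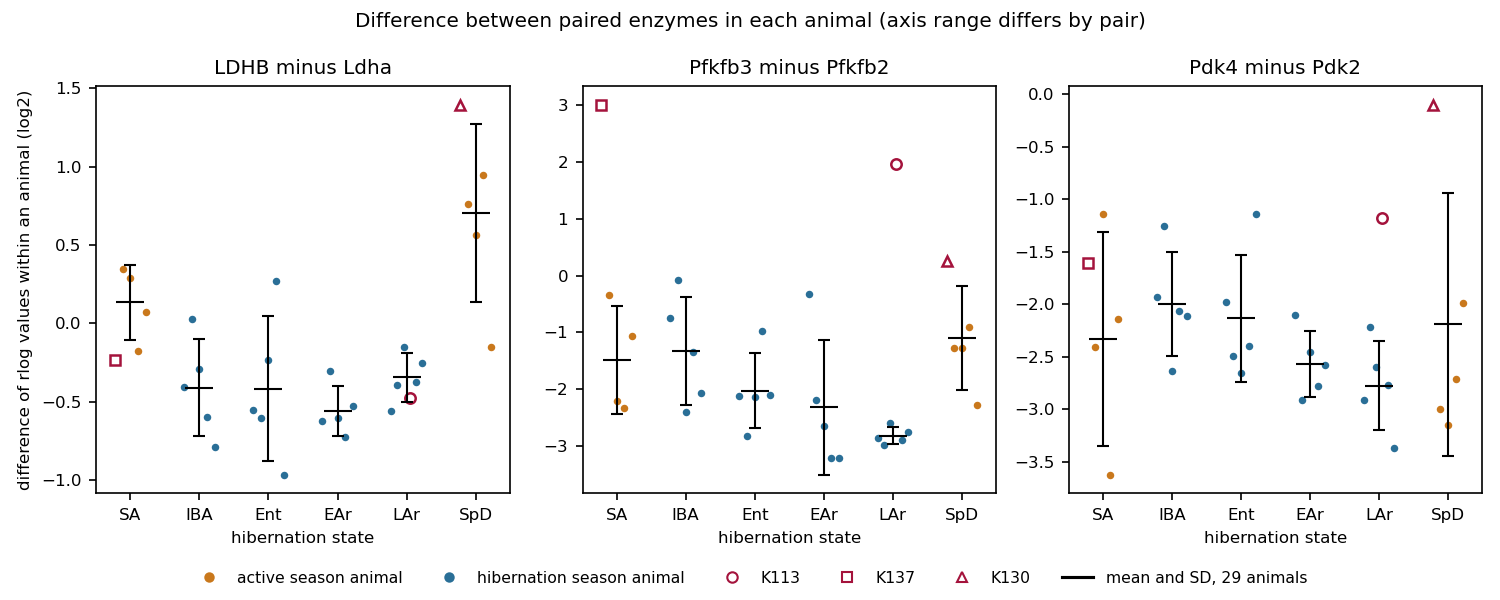
Difference of rlog values (log2) between the genes of each enzyme pair within an animal, by hibernation state, with the axis range set for each pair. Points are animals, open red symbols are K113, K137 and K130, and black bars are the mean and SD of the 29 animals. For LDHB minus Ldha all 20 hibernating animals of the main fit lie below the active median, while the other pairs overlap widely between seasons.

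Of the pyruvate dehydrogenase kinases, Pdk2 had its highest mean in LAr and Pdk4 in IBA. Pdk2 lay between 13.64 and 13.83 in the 5 LAr animals, between 13.42 and 13.73 in EAr, and between 12.42 and 13.78 in SpD. Its season difference of 0.28 ± 0.12 was not called (adjusted p = 0.0698). The experiments disagreed on it. In experiment 1 the hibernating animals were at 13.32 ± 0.26 (SD, n = 6) and the SpD animals at 13.60 ± 0.20 (SD, n = 3), and in experiment 2 they were at 13.62 ± 0.16 (SD, n = 14) and 12.69 ± 0.39 (SD, n = 2). The fit of experiment 2 alone called it (0.61, adjusted p = 0.000297). Without K130 the difference in the full fit was 0.16 (adjusted p = 0.194).

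Pdk4, a fasting-induced kinase, showed no called difference in any comparison. Its active animals spread most widely, from 9.996 to 12.08 in SA and from 10.24 to 12.32 in SpD, and all 20 hibernating animals lay inside that range, between 10.46 and 11.96. The season difference was 0.17 ± 0.23 (log2, SE; adjusted p = 0.604). Pdk4 minus Pdk2 differed by -0.12 between seasons (exact permutation p = 0.707). The spread of Pdk4 within states, with a median SD of 0.38, was close to the range of 0.44 between its state means.

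**Figure D3:**
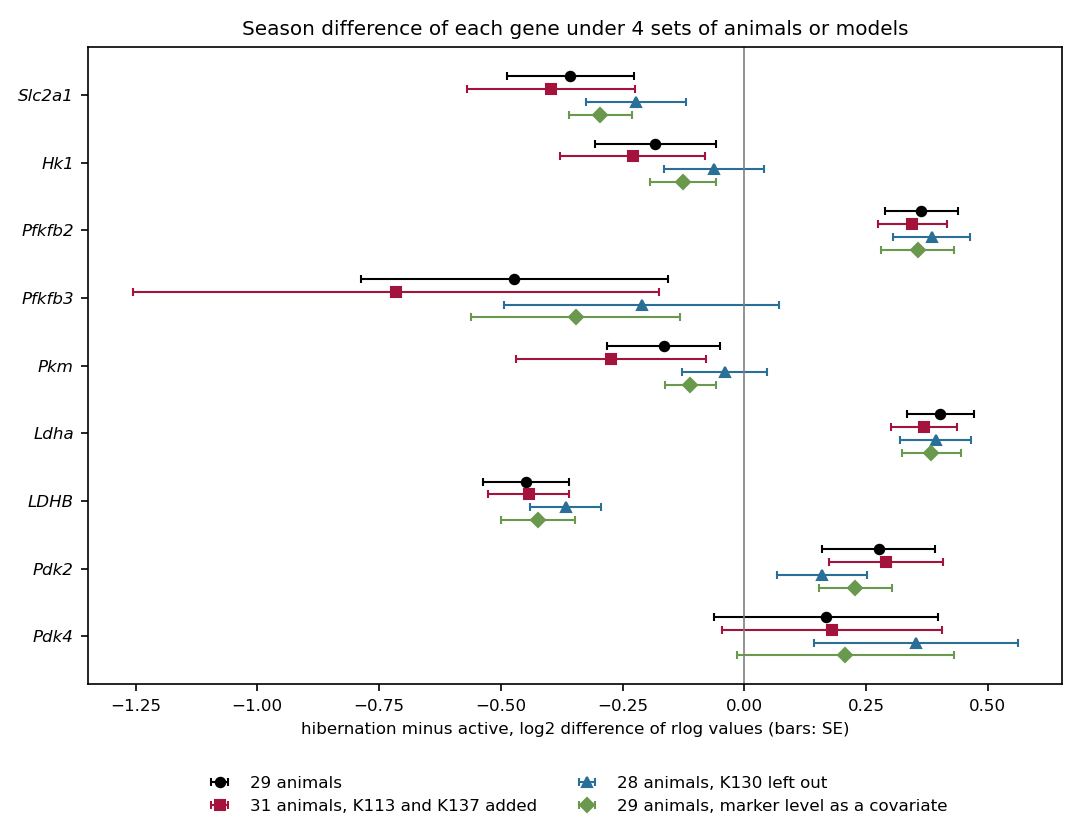
Hibernation minus active difference of rlog values (log2) for each gene, with SE bars, from 4 fits: 29 animals (black circles), 31 animals with K113 and K137 (red squares), 28 animals without K130 (blue triangles) and 29 animals with a marker level as covariate (green diamonds). Ldha, Pfkfb2 and LDHB have bars clear of 0 in all 4 fits, but an SE bar clear of 0 is not a call. Slc2a1 and Pdk2, which were not called in 29 animals, also have bars clear of 0 there. Without K130, Slc2a1, Hk1, Pfkfb3, Pkm and Pdk2 move toward 0.

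Between single states, 0 of the 9 genes were called by limma in any of 7 pairs. In SA/SpD (first minus second, as in all pairs), where 0.0544% of all genes were called, 4 members had an unadjusted p under 0.05, against 29.1% of all genes. Of these, Ldha was 0.44 ± 0.13 higher in SA (adjusted p = 0.0291), and 10.5% of all genes passed 0.05. In IBA/SA, 3.15% of all genes were called, 0.684% higher and 2.46% lower in IBA. There 1 member had an unadjusted p under 0.05, against 36.3% of all genes, and 0 passed an adjusted 0.05, against 22.9%. That member was LDHB, 0.38 ± 0.16 lower in IBA (a difference of -0.38, adjusted p = 0.0942).

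SpD/IBA had 2 members past an adjusted 0.05, against 11.9% of all genes, and 1.25% of all genes were called. LDHB was 0.68 ± 0.14 higher in SpD than in IBA (log2, SE; adjusted p = 0.00251), and Ldha differed by -0.44 ± 0.11 (adjusted p = 0.00994). LDHB was called there without SpD animal K9, the lowest of its state, with a difference of 0.79 (adjusted p = 0.000854).

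Within the torpor cycle, Ent/IBA had 0.746% of all genes called and 13.1% past 0.05. There 1 member, Slc2a1 with -0.43 ± 0.21 (adjusted p = 0.165), had an unadjusted p under 0.05, against 29.4% of all genes. EAr/Ent, across the torpor bout, had 0.132% of all genes called and 0.257% past 0.05. LAr/EAr, across rewarming, had 0.295% called and 0.575% past 0.05. In these last comparisons 0 of the 9 members had an unadjusted p under 0.05, against 7.16% of all genes in EAr/Ent and 8.33% in LAr/EAr. Adjusted p values of the members were 0.717 and above. IBA/LAr had 1.43% of all genes called and 18.0% past 0.05, with 5 members at an unadjusted p under 0.05, against 33.4% of all genes, and Slc2a1 alone past an adjusted 0.05. A p that misses the threshold does not show that levels were equal, and standard errors in these pairs reached 0.58 for Pfkfb3.

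K113, K137 and K130 stood apart from their states in several of the genes. Pfkfb3 was at 12.44 in K113 against 7.51 to 7.999 in the other LAr animals, at 13.16 in K137 against 7.67 to 9.84 in the other SA animals, and at 10.65 in K130 against 8.18 to 9.03 in the other SpD animals. Slc2a1, Hk1 and Pkm also lay above every other animal of the state in all 3, with differences from the mean of the others between 0.92 and 1.75. Pdk2 lay below every other animal of the state in all 3, by -0.56, -0.40 and -1.02. Pfkfb2 lay inside the range of its state in all 3. Over the table, 14.0% of genes lay above and 13.3% below the other animals in all 3.

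The same animals were high in the mean level of the collecting duct and medulla markers, though not in each marker. The mean of these 7 markers was 13.20 in K113 against 11.17 to 11.54 in the other LAr animals, 13.82 in K137 against 11.54 to 12.44, and 13.34 in K130 against 11.89 to 12.67. In each of these animals 5 of the 7 markers lay above every other animal of the state, among them Aqp2, Aqp3, Slc14a2 and Slc5a3. Slc14a2, a urea transporter, was at 12.87 in K113 against 6.31 to 6.91 in the other LAr animals. Over all animals it ran from 6.11 in K165 to 13.51 in K137, the widest range of the 7 markers. It therefore moves their mean level more than the others do, and the level was not computed without it. Hsd11b2 lay below every other animal of the state in all 3, and Scnn1g did in K113 and K137. The mean of the 7 proximal tubule markers was lower than in every other animal of the state, at 13.75, 14.30 and 13.78, against lowest values of 14.44, 15.03 and 14.54 in the others. Of these markers, 7 of 7 were below the others in K113, 6 in K137 and 5 in K130, where Aqp1 was above them (15.92, against 14.58 to 15.43). The part of tissue composition in the level of each gene was not tested, and the marker covariate below takes up only the difference of these mean levels.

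The marker level also moved with the genes among the 29 animals. After each value was centred on its state, Pearson's r with the collecting duct and medulla level was 0.88 for Hk1, 0.87 for Pkm, 0.80 for Pfkfb3 and 0.77 for Slc2a1 (permutation within state, n = 29, p = 1e-05 for each, the smallest that 100000 permutations can give, adjusted 2.25e-05 over 9 relations). It was 0.64 for LDHB (permutation p = 0.00062, adjusted 0.00112), -0.57 for Ldha (permutation p = 0.00678, adjusted 0.0102) and -0.55 for Pdk2 (permutation p = 0.0106, adjusted 0.0136). For Pfkfb2 it was -0.30 and for Pdk4 0.27, with adjusted permutation p of 0.205 and 0.231. Spearman's rho was 0.88, 0.90, 0.82, 0.75, 0.56, -0.51, -0.50, -0.33 and 0.17 in the same order, with permutation p between 1e-05 and 0.417. The share of all genes with such a relation to the marker level was not computed, so these relations need not be particular to the 9 genes.

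Leaving out K104 and K130, the animals farthest from the median marker level, r was 0.84 for Hk1, 0.86 for Pkm, 0.74 for Pfkfb3, 0.70 for Slc2a1, 0.56 for LDHB, -0.45 for Ldha, -0.40 for Pdk2, -0.35 for Pfkfb2 and -0.01 for Pdk4. Within experiment 1 (n = 9) and experiment 2 (n = 20), r was 0.85 and 0.87 for Hk1, 0.81 and 0.85 for Pkm, 0.87 and 0.77 for Pfkfb3, and 0.42 and 0.82 for Slc2a1. LDHB had 0.71 and 0.50, Ldha -0.69 and -0.34, Pfkfb2 -0.78 and -0.04, and Pdk4 -0.26 and 0.38. With K113 and K137 added (n = 31), r was 0.26 for LDHB and -0.32 for Ldha, but 0.87 to 0.94 for Slc2a1, Hk1, Pfkfb3 and Pkm. Pdk2 had 0.37 in experiment 1 and -0.77 in experiment 2, so its pooled relation did not hold within both.

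The marker level itself had a lower mean in hibernation, at 11.72 ± 0.46 (SD, n = 20) against 12.26 ± 0.53 (SD, n = 9). Of its 7 genes 0 were called between seasons, but 5 were lower and 2 higher, with a median difference of -0.70. Aqp3 (-0.87, adjusted p = 0.00125), Slc5a3 (-0.74, adjusted p = 0.0195) and Aqp2 (-0.70, adjusted p = 0.00520) passed 0.05. Of the 7 proximal tubule markers 0 were called, with 4 lower and 3 higher. Slc5a2 (-1.08), Slc34a1 (-0.85) and Aqp1 (-0.49) passed 0.05 among the lower ones. The mean of the 7 proximal tubule markers was also lower in hibernation, at 14.60 ± 0.30 (SD, n = 20) against 14.95 ± 0.49 (SD, n = 9). The covariate added to the model was the proximal tubule minus the collecting duct and medulla level of each animal. A fall shared by both levels cancels in it, so the fit cannot show what such a fall adds to a gene. With this covariate, Ldha (0.38, adjusted p = 3.39e-05), LDHB (-0.42, adjusted p = 0.000134) and Pfkfb2 (0.36, adjusted p = 0.000706) stayed called. Slc2a1 then passed the threshold, with -0.30 ± 0.06 (adjusted p = 0.000946). Without the covariate its difference from SA alone was -0.10 (adjusted p = 0.729), and hibernating minus SpD means were 0.03 in experiment 1 and -1.19 in experiment 2, where K130 was 1 of 2 SpD animals. Hk1 was at -0.13 (adjusted p = 0.146) and Pkm at -0.11 (adjusted p = 0.105) in that model.

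**Figure D4:**
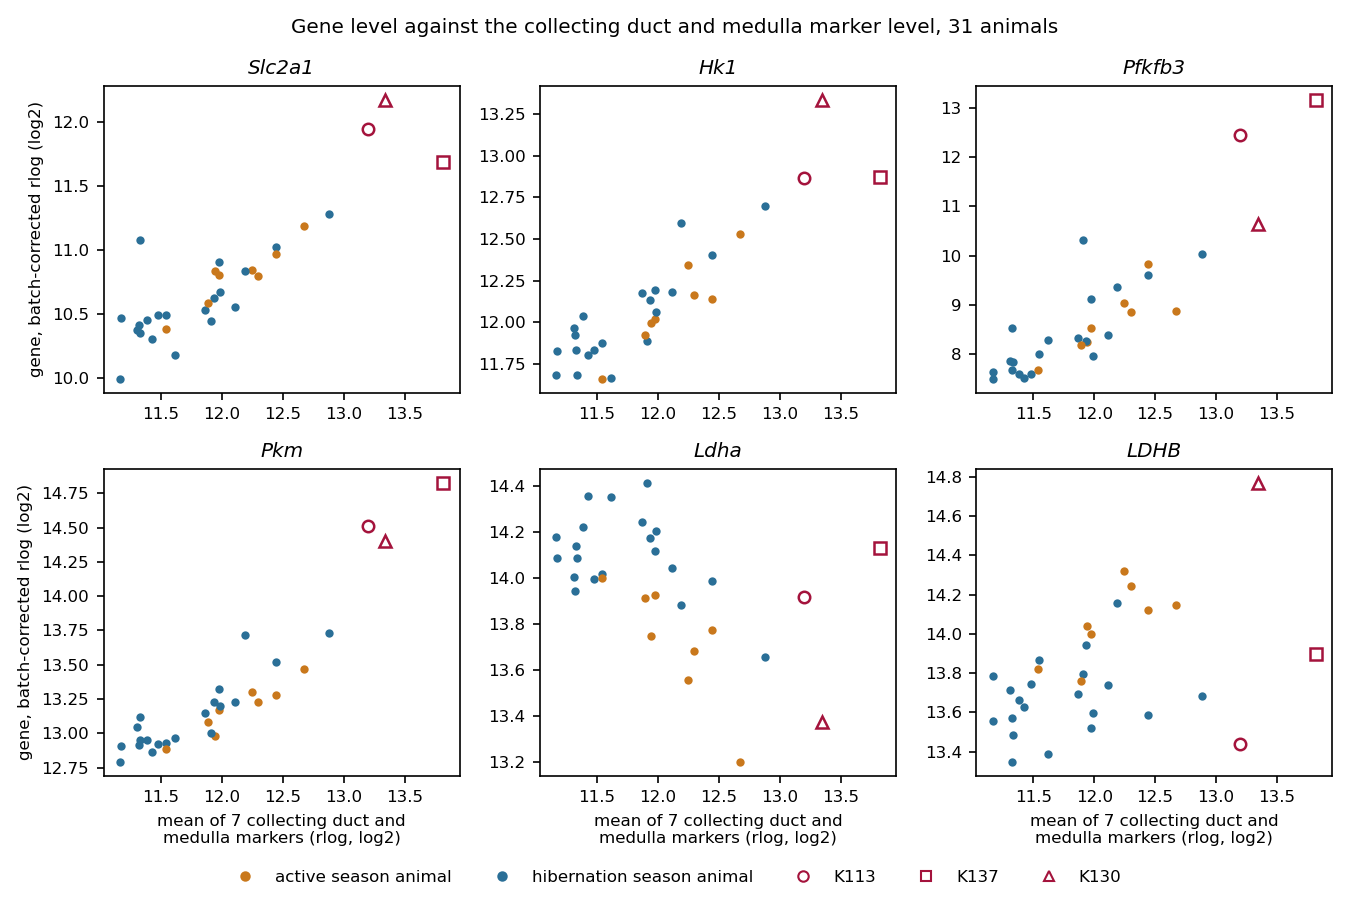
Rlog value (log2) of 6 of the genes against the mean rlog value (log2) of 7 collecting duct and medulla markers in 31 animals, not centred on state. Each point is an animal (orange active season, blue hibernation season), and open red symbols are K113, K137 and K130. Slc2a1, Hk1, Pfkfb3 and Pkm climb with the marker level, whereas most blue points lie above the orange points in the panel of Ldha and below them in that of LDHB, with overlap.

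The other enzymes and carriers of glycolysis and pyruvate use were read from a list of 42 genes, of which 34 had rows. Between seasons 6 of the 34 were called, 1 higher and 5 lower in hibernation. The list leaned lower, with 25 of 34 below 0 and a median difference of -0.16, against 0.00024 over all genes, and 17.6% of it was called against 9.73% of the table. Pdk3, a further pyruvate dehydrogenase kinase, fell by 0.37 on the log2 scale (-0.37 ± 0.06, adjusted p = 3.55e-05). Gapdh and Tpi1, enzymes of the triose steps, changed by -0.31 ± 0.07 (adjusted p = 0.000994) and -0.29 ± 0.05 (adjusted p = 0.000125). Eno2, an enolase, was the gene that rose, by 0.32 ± 0.07 (adjusted p = 0.000662), and Pgk1 and Pgam1 were the other genes that fell.

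Pdk3 had its highest level in SA (9.82 ± 0.16, SD, n = 4) and was between 9.11 and 9.32 in mean in the other states, so unlike Pdk2 and Pdk4 it was called across the 6 states (adjusted p = 5.07e-05). The other gene of the list called there was Pgk1, phosphoglycerate kinase (adjusted p = 0.000859), so 5.88% of the list was called. In IBA/SA, 3 of 34 were called, 8.82% of the list against 3.15% of the table. Eno2 was higher in IBA by 0.67 ± 0.12 (adjusted p = 0.000478), Pdk3 fell by 0.77 (-0.77 ± 0.11, adjusted p = 3.41e-05), and Dld, a subunit of the pyruvate dehydrogenase complex, fell by 0.41 (-0.41 ± 0.07, adjusted p = 0.000430). In the other 6 pairs 0 of 34 were called by limma, and 0 to 5 had an adjusted p under 0.05.

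Several of these calls were lost with K113 and K137 added. With both, the season difference of Eno2 was 0.21 (adjusted p = 0.340). K113 was at 10.44 and K137 at 10.21, against 8.51 to 9.47 in the other animals of the 29. Pdk3 (-0.30, adjusted p = 0.00464), Pgk1 (-0.27, adjusted p = 0.00159) and Gapdh (-0.28, adjusted p = 0.00285) also lost their calls, and Tpi1 (-0.27, adjusted p = 0.000178) and Pgam1 (-0.19, adjusted p = 0.000923) kept theirs. In IBA/SA all 3 calls were lost, with adjusted p of 0.502 for Eno2, 0.00915 for Pdk3 and 0.0184 for Dld, and across the 6 states Pdk3 (0.00751) and Pgk1 (0.0129) were. Without K130, Eno2 (0.33, adjusted p = 0.001002) and Pgam1 (-0.17, adjusted p = 0.00133) missed the threshold between seasons. In that fit, differences from SA alone were -0.66 for Pdk3, -0.42 for Gapdh and -0.34 for Tpi1. They were -0.32 for Pgk1, -0.30 for Pgam1 and 0.48 for Eno2. From SpD alone they were smaller, at -0.12, -0.28, -0.24, -0.13, -0.04 and 0.17 in the same order, with adjusted p between 0.0449 and 0.711. With the marker covariate, Eno2 (0.54, adjusted p = 0.00446) and Dld (-0.37, adjusted p = 0.00297) lost their IBA/SA calls and Pdk3 kept its own (-0.71, adjusted p = 0.000279), and all 6 seasonal calls were kept.

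**Figure D5:**
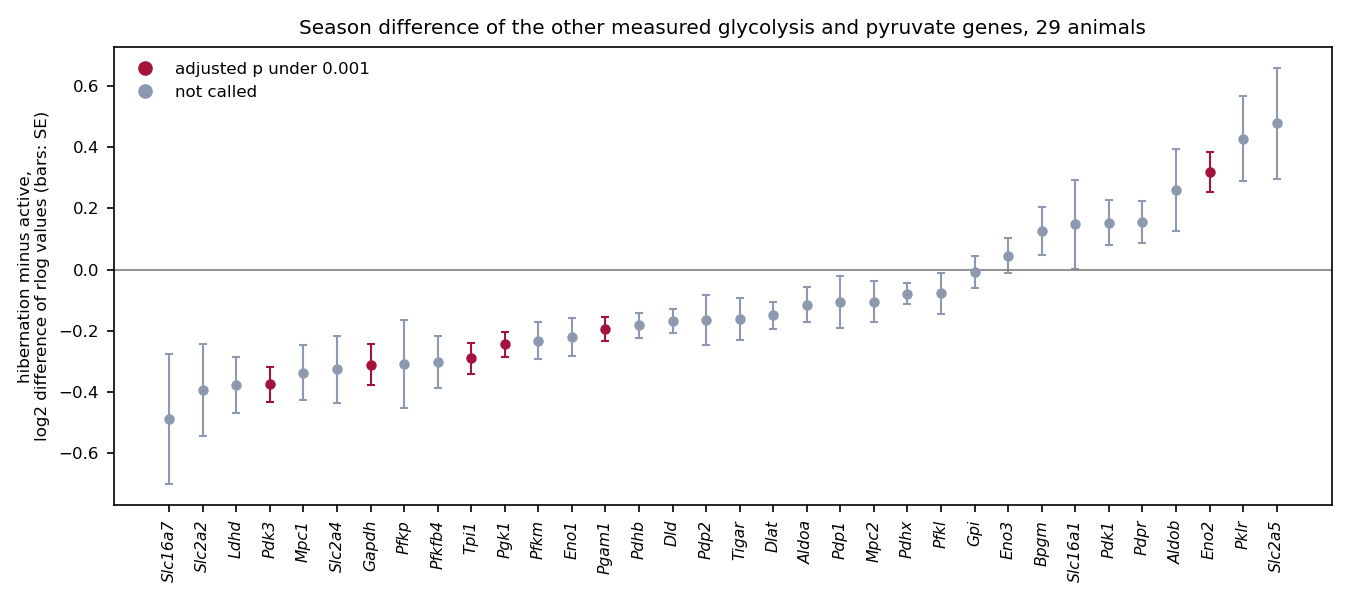
Hibernation minus active difference of rlog values (log2) for the other 34 measured genes of glycolysis and pyruvate use, with SE bars, in 29 animals and ordered by size. Red points were called at an adjusted p under 0.001 and grey points were not. Most genes lie below 0, and 5 of the 6 called genes do.

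Of 23 listed regulators of these genes, all with rows, 1 was called across the 6 states and 2 between seasons, 4.35% and 8.70% of the list against 9.34% and 9.73% of the table, so neither share was above the background. Myc, a transcription factor that can drive glycolytic genes, was at 9.18 ± 0.28 in LAr against 7.87 ± 0.15 in EAr (SD, n = 5 each), a rise of 1.31 ± 0.16 (log2, SE; adjusted p = 1.23e-05) in a comparison where 0.288% of all genes were called higher. With K113 and K137 added to the fit it rose by 1.44 (adjusted p = 7.07e-06). Its season difference was 0.53 ± 0.10 (adjusted p = 0.000320), and with K113 and K137 added 0.51 (adjusted p = 0.00102), which missed the threshold. Klf15, a transcription factor of fasting metabolism, fell by 0.38 between seasons (-0.38 ± 0.08, adjusted p = 0.000871), a call lost with K113 and K137 added (-0.35, adjusted p = 0.00127) and without K130 (-0.38, adjusted p = 0.00148). None of the 9 genes was called in LAr/EAr, where Myc rose.

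The genes whose levels followed Ldha most closely over the 29 animals, by Pearson's r over all genes of the table, were Tmem248 (0.90), Spns2 (0.89) and Erbin (0.88). These values describe the levels as they stand, season included. Among the 9 genes themselves, 15 of 36 pairs had a correlation of state-centred values with an adjusted permutation p under 0.05, 10 positive and 5 negative. The share among pairs of other genes was not computed. The highest correlation of the 36 pairs was 0.96 between Hk1 and Pkm (Spearman's rho 0.93, permutation p = 1e-05 and adjusted 0.00012, n = 29), which stayed at 0.94 without K130 and K5.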

How the data were processed

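Kidney RNA from 31 animals in 6 states was analysed. Per the labels and the study's methods, the authors made poly(A) libraries with TruSeq (experiment 1) or Nugen (experiment 2) kits, used cutadapt for trimming and HISAT2 to filter out mitochondrial reads, assigned the rest to transcripts of the HiC_Itri_2 build with Salmon, summed them to genes, kept genes with rlog values of at least 7 in at least 4 of 5 animals of a group, and removed the batch effect with limma. Versions are not given in the sources used here. The deposited values are the authors' batch-corrected rlog values on the log2 scale, with 0 missing values and 0 columns outside the labelled samples. Counts were not used here, so the study's count model was replaced by limma 3.58.1 in R 4.3.3 (terms for state, sex and experiment, variances moderated with an intensity trend, Benjamini-Hochberg adjustment within each comparison over 12863 genes, calls under 0.001). Since the experiment means were already removed, the fit holds slightly more residual degrees of freedom than the data warrant. The pipeline was tested on simulated data.

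The 10 members and the lists of other pathway genes, regulators and cell markers were chosen with earlier results of these data known. All members are named, and of each list at most the 4 called genes of largest difference in a comparison, others being chosen after their values were seen. Enzyme pairs were compared by exact permutation tests (Python 3.11.15, scipy 1.17.1), with 21 tests between states called at an adjusted p under 0.05. The tests of enzyme pairs between seasons were added to the planned ones. The planned pair of hexokinases could not be made without Hk2. Correlations used values centred on state and 100000 permutations within state, and were added after the values of K113, K137 and K130 were seen. Alternatives were other sets of animals, other terms, thresholds and weights, a mean filter of 8, median centring, and leaving out each animal. Figures were drawn with matplotlib 3.10.9. RefSeq's gene table matched all 9 symbols but is of another assembly, so coordinates were not used here, and sequences were not analysed here. Replicates are different animals.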

Additional observations from a re-analysis of the deposited data

Results flagged for a closer look

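In groups of 5 or 6 animals, with K113 and K137 included, 7 of 54 combinations of gene and state had 1 animal farther from the others than Dixon's critical value allows. The nominal rate is about 1 in 20, but several of the genes were correlated within states, so the combinations are not independent. The share of flags over all genes was not computed. K113 and K137 are animals that the study removed as outliers over the whole table, so flags in them need not be particular to these genes. K113 (LAr) was flagged 5 times. It was high in Slc2a1 (11.95, against 9.997 to 10.50 in the other LAr animals), Hk1 (12.87, against 11.68 to 12.04), Pfkfb3 (12.44, against 7.51 to 7.999) and Pkm (14.51, against 12.79 to 12.95), and low in Pdk2 (13.16, against 13.64 to 13.83). K137 (SA) was flagged for Pkm (14.83, against 12.89 to 13.28). The flag outside these animals was Pdk2 in the Ent animal K8 (12.9, against 13.49 to 13.62). K130 was not flagged, although it lay above every other SpD animal in Slc2a1, Hk1, Pfkfb3 and Pkm. A difference between the sexes in the season effect was called for 0 of 9 genes by limma, and 0 of 9 had an unadjusted p under 0.05.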

How the results depend on the processing

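Of 3402 values of single members under other settings, 3360 kept their direction and side of the threshold, 32 lost a call, 10 gained one and 0 called values changed sign, while 114 uncalled values changed sign. Across the 6 states the count of members called went from 1 to 3 at an adjusted p under 0.01 and to 4 at 0.05, which 46.1% of all genes passed. The share of all genes at 0.01 was not computed, so counts at 0.01 have no background beside them. Under other settings the count was 0 in 28 animals (K130 out), 0 with K130 out but K113 and K137 in, 0 without the experiment term and 3 with array weights. It ran from 0 to 2 when 1 animal was left out. At 0.05 the count was 1 in SA/SpD, against 10.5% of all genes, and 1 in IBA/LAr, against 18.0%. In SpD/IBA it was 2 at 0.01 and 2 at 0.05, against 11.9% of all genes at 0.05. It was 1 there with the marker covariate, 1 with array weights, and 0 to 1 with 1 animal left out. Between seasons it was 0 with SA alone as the active group, and 1 to 3 with 1 animal left out, the 1 being without K138 (SA). The cause of these changes was not tested. The counts of enzyme pair tests between states and of sex by season differences were 0 under every setting run. Leaving out single animals gave 0 members called in the other pairs. No paired analysis was possible because the labels give no replicate numbers that the states share. Depth is unknown, so what counting error adds cannot be given.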
